A study of Mus musculus with 15 samples.

Results

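The 6 libraries described here came from primary mouse granulosa cells transfected with siRNA against Foxl2, 3 of them labelled 54 h and 3 labelled 30 h after transfection. They are 6 of the 15 libraries in the series. Within each time they were ordered by the Foxl2 that was left, in CPM (counts relative to a library total scaled by the trimmed mean of M-values, TMM), and 11131 of 24490 genes with a mean of at least 4 CPM over the 6 libraries were sorted by whether they followed that order. Followers were thus chosen by the same CPM values that are described below. Foxl2 itself was left out of the sorting. The cells came from the ovaries of 8-week-old RjOrl:SWISS females and were grown in 6-well plates, and all libraries, controls included, were made after lipid transfection of 30 pmol of siRNA. The other 9 libraries were 3 with Esr2 siRNA at 30 h, 3 with scrambled siRNA at 54 h and 3 with scrambled siRNA at 30 h. For each target the labels name 4 pools of 3 siRNAs, with the same catalogue numbers under both targets, and say neither which pool a given library received nor whether replicates were separate cultures or animals. The spread between libraries may therefore be partly technical. The extraction protocol names 30 h alone, so 54 h and 30 h follow the sample titles.

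Granulosa cells, the somatic cells around the oocyte, hold their ovarian state through FOXL2, a transcription factor with a forkhead DNA-binding domain. It represses Sox9, the factor that drives Sertoli cell fate in the testis, and acts with the oestrogen receptors, of which ESR2 (oestrogen receptor beta) is the main form in granulosa cells. Known FOXL2 targets include follistatin (Fst), which binds activin, and aromatase (Cyp19a1), which makes oestrogen. An siRNA lowers an mRNA but seldom removes it, and transfections differ in how much is left.

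Foxl2 (GRCm38 chr9:98955288-98958543, plus strand) stood at 25.2, 33.7 and 57.5 CPM in the lowest, middle and highest library at 54 h, which are replicates 3, 1 and 2. At 30 h it stood at 28.4, 33.8 and 65.4 CPM in replicates 2, 1 and 3. The deposited counts behind these values were 1309, 1530 and 3410 at 54 h and 1436, 1676 and 3321 at 30 h, and the exact 95% Poisson intervals of the 3 libraries did not overlap at either time. These intervals cover counting error only. The highest library thus held 2.28-fold the Foxl2 of the lowest at 54 h and 2.3-fold at 30 h. Most of that distance lay between the middle and the highest library, with log2 ratios of 0.77 at 54 h and 0.95 at 30 h, against 0.42 and 0.25 between the lowest and the middle library. All 6 libraries lay below the libraries without Foxl2 siRNA, where Foxl2 was 112, 128 and 114 CPM with Esr2 siRNA, 189, 154 and 166 CPM with scrambled siRNA at 54 h and 174, 152 and 143 CPM with scrambled siRNA at 30 h.

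The order of the libraries and the choice of the genes use the same values, so the classes below are descriptions without a p-value. With 3 libraries at each time, an exact permutation within times could not go below p = 0.0556, two-sided, for any single gene. Any other property that ranks these libraries in the same way cannot be told apart from Foxl2. The share of counts taken by the 10 most abundant genes was such a property, at 6.44%, 6.10% and 5.67% from the lowest-Foxl2 to the highest-Foxl2 library at 54 h and 5.85%, 5.39% and 5.32% at 30 h. Depth did not share the order at 54 h, at 53.99, 47.65 and 59.55 M gene counts, and was 51.3, 50.69 and 50.69 M at 30 h. ERCC spike-in RNA made up 0.147%, 0.105% and 0.169% of counts at 54 h and 0.113%, 0.215% and 0.268% at 30 h, so its share followed Foxl2 at 30 h and not at 54 h. Their part in the results was not tested.

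Libraries with the same place in the Foxl2 order resembled each other across the times, although their replicate numbers differ. Across the 11131 genes, the deviations of log2 CPM from the mean of the time correlated at 0.73 between the highest library at 54 h and the highest at 30 h, at 0.79 between the middle libraries and at 0.62 between the lowest libraries. Every pair of libraries with different places had a negative correlation, between -0.10 and -0.59. These are correlations across genes, which are not independent replicates, and the 3 deviations of a time sum to 0. The middle library is replicate 1 at both times, while the lowest and the highest exchange the numbers 2 and 3.

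A gene was said to follow upward when its 3 libraries had the order of Foxl2 at both times, and downward when they had the reverse order at both times. Of the 11131 genes, 1041 (9.35%) followed upward and 729 (6.55%) followed downward. Another 665 (5.97%) had the order of Foxl2 at one time and its reverse at the other, and 8696 were unordered at 1 time or at both. The same sorting by Foxl2 in the 6 scrambled libraries, where Foxl2 differed 1.23-fold at 54 h and 1.22-fold at 30 h, put 576 of 11077 genes (5.2%) in the upward, 338 (3.05%) in the downward and 337 (3.04%) in the opposite class. Depth limits many of these orders. In 153 upward and 171 downward followers, all 4 steps between neighbouring libraries were wider than counting error, judged by 95% Poisson intervals that did not overlap, and 29 of the 665 opposite genes met that mark.

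**Figure D1:**
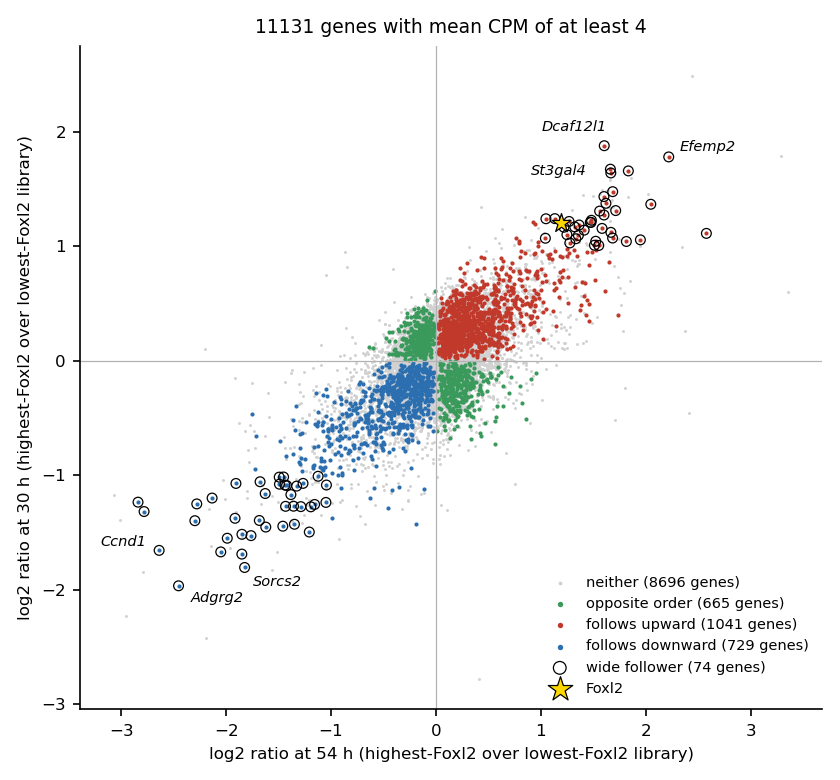
Each point is 1 of 11131 genes, with the log2 ratio of the highest-Foxl2 over the lowest-Foxl2 library at 54 h on the x axis and at 30 h on the y axis, coloured by class, with wide followers circled and Foxl2 as a star. The 36 wide upward and 38 wide downward followers lie in the corners where both ratios are at least 1 in size, and none of the 665 genes in the opposite class has both ratios of that size.

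A follower was called wide when the highest-Foxl2 library differed from the lowest by a log2 ratio of at least 1 in size, a 2-fold difference, at both times; 36 genes (0.323%) were wide upward and 38 (0.341%) wide downward, against 0 and 3 genes (0.0271%) in the scrambled libraries. The 2 sets of counts are not alike. The scrambled lowest and middle libraries were less alike across the times, with correlations of deviations of 0.41 and 0.22. When only the highest-Foxl2 library had to stand apart, 63 genes were that wide upward and 70 downward with Foxl2 siRNA. In scrambled libraries 0 and 71 were. Of all genes in the order of Foxl2 at 54 h, 1041 of 2242 kept that order at 30 h, and of those in reverse order 729 of 1983 kept it. From 30 h, 1041 of 3002 and 729 of 2286 had the same order at 54 h. Of the 57 genes that followed Foxl2 upward at 30 h with a log2 ratio of at least 1, all 57 had a positive ratio at 54 h and 42 had the full order there. Of the 83 that ran downward as widely at 30 h, 78 had a negative ratio at 54 h and 49 the full reverse order. From 54 h, 125 of 131 wide upward genes kept their sign at 30 h and 87 their order, while 134 of 134 downward genes kept their sign and 94 their order. In none of these 4 sets did a gene take the opposite full order at the other time. Libraries with the same place correlated at 0.62 to 0.79 over all 11131 genes, and kept signs cannot be told apart from that likeness. The share of all genes that kept their sign was not counted. Since a left-out library leaves 2 to compare, the counts lean on the end libraries: wide upward genes numbered 2 without replicate 2 at 54 h, 18 without replicate 2 at 30 h and 1 without replicate 3 at 30 h, and wide downward genes 7, 15 and 18. Just inside the limit of width were Wnt5a, with ratios of -1.12 at 54 h and -1.01 at 30 h, Phf19, with 1.51 and 1.01, and Bex4, with 1.55 and 1.005. Just outside it were Whrn, with -1.06 and -0.999, Spns2, with -0.99 and -1.37, and Sytl5, with -0.99 and -0.98. At the limit on level, Pianp and Ptprb were kept with means of 4.0004 and 4.0005 CPM, and Dubr and Angel1 were left out with 3.997 CPM each.

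Esr2 followed Foxl2 upward. Esr2 was measured at 15.7, 18.0 and 49.3 CPM from the lowest-Foxl2 to the highest-Foxl2 library at 54 h and at 25.004, 29.2 and 45.5 CPM at 30 h. The highest library had 3.14-fold the Esr2 of the lowest at 54 h and 1.82-fold at 30 h. It stayed below the range of the scrambled libraries, which averaged 68.8 ± 4.85 CPM at 54 h and 60.9 ± 0.651 CPM at 30 h (SD, n = 3 each). Inha, the inhibin alpha subunit, also followed upward, at 1411, 1602 and 2239 CPM at 54 h and 1425, 1958 and 2407 CPM at 30 h. Inhba, which encodes the beta A subunit of activin and inhibin, ran the other way, at 458, 431 and 297 CPM at 54 h and 540, 467 and 304 CPM at 30 h.

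**Figure D2:**
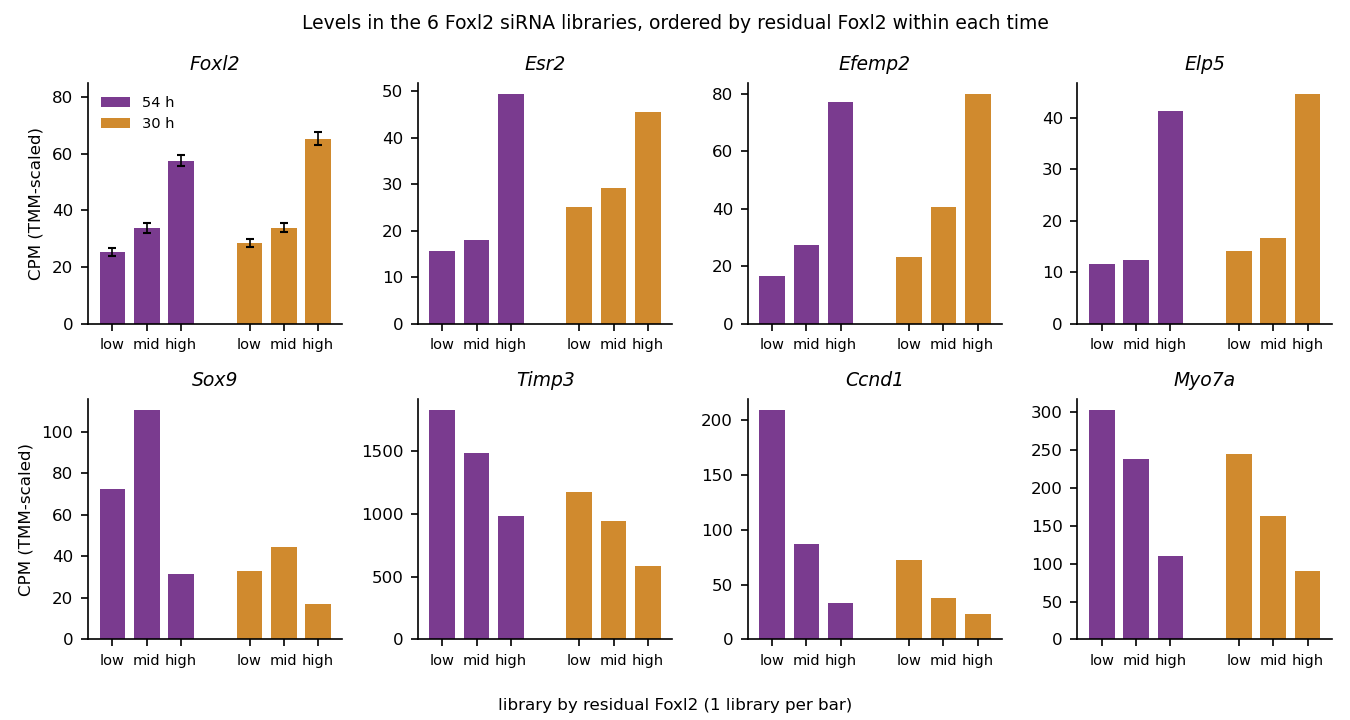
TMM-scaled CPM of 8 genes (y axis, from 0) in the 6 Foxl2 siRNA libraries, with 1 bar per library, 54 h left of 30 h, and libraries ordered by residual Foxl2 within each time; error bars on Foxl2 are exact 95% Poisson intervals. Esr2, Efemp2 and Elp5 are highest where Foxl2 is highest, Timp3, Ccnd1 and Myo7a are lowest there, and Sox9 is lowest there but peaks in the middle library.

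The upward genes with the widest difference were of mixed function. Efemp2 (chr19:5473954-5482517, plus strand), a fibulin needed to build elastic fibres, led them at 16.6, 27.6 and 77.2 CPM at 54 h and 23.3, 40.7 and 79.8 CPM at 30 h, a 4.66-fold and a 3.43-fold difference. Its 6 values lay below the 9 values of the other groups, which averaged 87.3 ± 2.80 CPM with Esr2 siRNA, 91.3 ± 3.4002 CPM with scrambled siRNA at 54 h and 100.2 ± 1.64 CPM with scrambled siRNA at 30 h (SD, n = 3 each). Dcaf12l1, an X-linked gene of the DDB1 and CUL4 associated factor family, stood at 10.2, 12.9 and 31.1 CPM at 54 h and 11.02, 15.7 and 40.5 CPM at 30 h. Efemp2 and Dcaf12l1 were among the 14 of 36 wide upward genes in which all 4 steps exceeded counting error.

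In many wide upward genes a single step, to the highest library, held most of the difference. St3gal4, a sialyltransferase, was level in the lower libraries and high in the third, at 52.5, 52.6 and 166 CPM at 54 h and 75.9, 83.4 and 242 CPM at 30 h. Elp5, a subunit of the Elongator complex that modifies transfer RNA, stood at 11.6, 12.4 and 41.3 CPM at 54 h and 14.1, 16.7 and 44.6 CPM at 30 h, against 46.8 ± 1.53 and 47.1 ± 3.35 CPM in scrambled libraries at 54 h and 30 h (SD, n = 3 each). Cox14, a factor for assembly of cytochrome c oxidase, had 14.1, 14.5 and 42.9 CPM at 54 h and 15.9, 16.4 and 43.0 CPM at 30 h, where scrambled libraries averaged 38.8 ± 1.12 CPM at 54 h and 39.5 ± 0.708 CPM at 30 h (SD, n = 3 each). The step between the lowest and the middle library was within counting error at 54 h in these 3 genes, and at 30 h in Cox14 but not in St3gal4 and Elp5. Over the 36 wide upward genes, the median log2 ratio of the middle over the lowest library was 0.25 at 54 h and 0.29 at 30 h, and that of the highest over the middle library was 1.26 at 54 h and 0.89 at 30 h. The step to the highest library was the larger of the 2 steps at both times in 28 of the 36.

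The same shape recurred in Snd1, a nuclease of RNA-silencing complexes, at 44.3, 48.3 and 136 CPM at 54 h and 58.1, 64.8 and 150 CPM at 30 h. It recurred in Tmed2, a cargo receptor of vesicles between endoplasmic reticulum and Golgi, at 155, 159 and 373 CPM at 54 h and 188, 213 and 436 CPM at 30 h. Opa3 (a mitochondrial protein), Btbd2, Gdpd1 and Coprs had log2 ratios from 1.48 to 1.69 at 54 h and from 1.23 to 1.47 at 30 h. Opa3 and Coprs also rose between the lower libraries at 30 h, beyond counting error. They stood at 14.3, 18.8 and 34.6 CPM and at 4.96, 7.75 and 13.8 CPM. Ramp1, which pairs with the calcitonin receptor-like receptor to bind CGRP, had 12.3, 12.6 and 39.2 CPM at 54 h and 16.9, 23.0 and 52.5 CPM at 30 h, and even its highest library lay far below the scrambled averages of 192 ± 7.88 CPM at 54 h and 151 ± 14.2 CPM at 30 h (SD, n = 3 each). Nnat, an imprinted proteolipid gene, and Epb41l4b, a membrane-cytoskeleton adaptor, had ratios of 1.71 and 2.05 at 54 h and 1.31 and 1.36 at 30 h. Of the 36 wide upward genes, the lowest-Foxl2 library was below the range of the 3 scrambled libraries of its time in 34 at 54 h and 35 at 30 h. The highest-Foxl2 library was below that range in 20, within it in 4 and above it in 12 at 54 h, and below it in 15, within it in 7 and above it in 14 at 30 h.

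**Figure D3:**
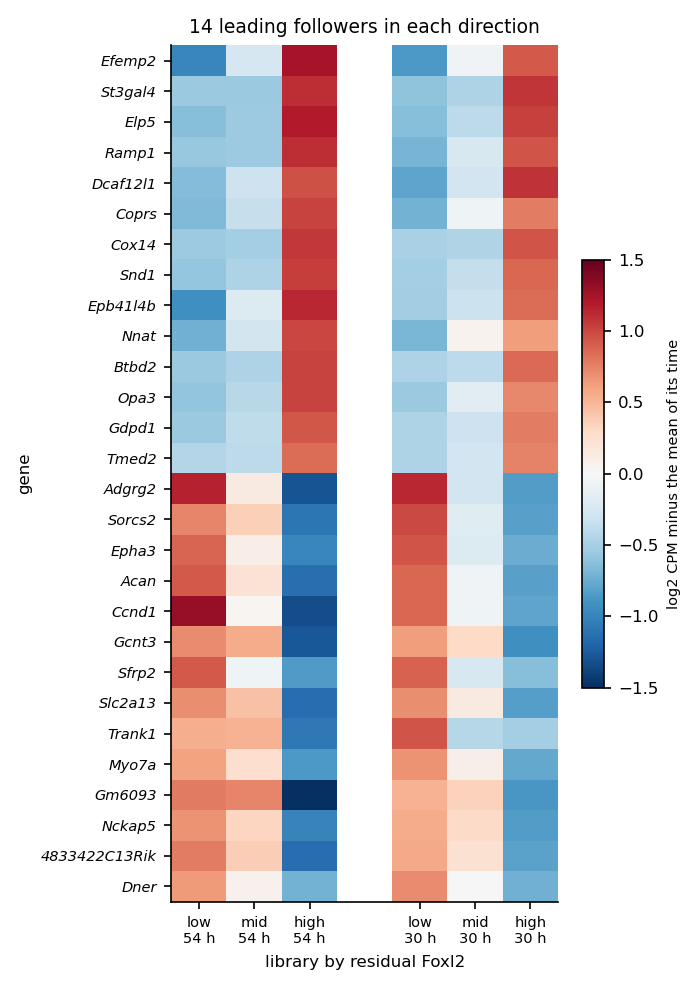
Rows are the 14 upward and 14 downward followers with the largest smaller ratio, columns are the 6 libraries by residual Foxl2 (54 h left, 30 h right), and colour is log2 CPM minus the mean of the 3 libraries of that time. In most upward genes the lowest and middle libraries share a shade and the highest stands apart, while in Adgrg2, Acan and Ccnd1 all 3 libraries differ.

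Several downward genes differed between all 3 libraries of a time. Ccnd1, which encodes cyclin D1, a driver of the G1 phase, stood at 209, 86.7 and 33.6 CPM at 54 h and 72.4, 38.1 and 23.0 CPM at 30 h, so the library with least Foxl2 held 6.23-fold and 3.15-fold the level of the library with most. The highest-Foxl2 library at 30 h approached the scrambled libraries, which averaged 23.7 ± 6.68 CPM at 54 h and 19.0 ± 4.09 CPM at 30 h (SD, n = 3 each). Adgrg2 (chrX:160390690-160498070, plus strand), an adhesion G protein-coupled receptor known from the epididymis, had 21.4, 10.5 and 3.91 CPM at 54 h and 9.38, 3.51 and 2.40 CPM at 30 h. Acan, the cartilage proteoglycan aggrecan, had 66.4, 40.8 and 16.0 CPM at 54 h and 47.9, 25.5 and 15.04 CPM at 30 h. Sfrp2, a secreted Wnt antagonist, had 166, 83.9 and 48.9 CPM at 54 h and 140, 63.7 and 48.5 CPM at 30 h. All 4 genes had every step beyond counting error, as did 24 of the 38 wide downward genes.

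The median log2 ratios of the 38 wide downward genes were -0.52 for the middle over the lowest library and -1.12 for the highest over the middle library at 54 h. At 30 h they were -0.72 and -0.54, and the step to the highest library was the larger at both times in 13 of 38. Wnt5a, a non-canonical Wnt ligand, was the most abundant named example, at 768, 448 and 352 CPM at 54 h and 731, 423 and 363 CPM at 30 h. Tgfb2, a ligand of the TGF-beta family, had 113, 78.5 and 41.6 CPM at 54 h and 84.6, 56.2 and 39.9 CPM at 30 h. Myo7a, an unconventional myosin known from inner ear hair cells, had 303, 238 and 110 CPM at 54 h and 245, 163 and 89.96 CPM at 30 h. Epha3, an ephrin receptor, Sorcs2, a receptor for pro-neurotrophins, and Dner, a Notch-related transmembrane protein, had log2 ratios from -1.85 to -1.35 at 54 h and from -1.81 to -1.43 at 30 h. Gcnt3 (a glycosyltransferase of mucin type), Slc2a13 (a myo-inositol transporter), Trank1, Nckap5 and the unnamed loci Gm6093 and 4833422C13Rik completed the leading set, with ratios from -2.30 to -1.62 at 54 h and from -1.55 to -1.38 at 30 h. The lowest-Foxl2 library lay above the scrambled range in 35 of the 38 genes at each time, and the highest-Foxl2 library was above it in 15, within it in 6 and below it in 17 at 54 h, and above it in 10, within it in 16 and below it in 12 at 30 h.

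The scrambled libraries gave a reading of the same genes in samples that the choice did not use, over a narrower range of Foxl2. Of the 35 wide upward genes with a mean of at least 4 CPM there, 1 followed Foxl2 upward and 2 downward in the scrambled libraries, with median log2 ratios of 0.12 at 54 h and 0.04 at 30 h. Of 26 wide downward genes, 0 followed upward and 1 downward, with medians of -0.43 at 54 h and -0.39 at 30 h. These shares are read beside 5.2% upward and 3.05% downward over all genes in the scrambled libraries. The medians have no value over all genes beside them. Replicate 1 was the scrambled library with most Foxl2 at both times. With a log2 ratio of at least 1 in size, it lay below both others at both times in 71 genes and above in 0. The negative medians cannot be told apart from other traits of that library.

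Foxl2 itself had log2 ratios of 1.19 at 54 h and 1.20 at 30 h. Ratios larger in size at both times were seen in 16 of the 36 wide upward and 22 of the 38 wide downward genes. No other gene among the 1041 upward and 729 downward followers had such ratios, since that would have made it wide. The genes whose log2 CPM, centred within each time, correlated most closely with that of Foxl2 over the 6 libraries were mostly narrower. They were Etaa1, Lonrf1, Hspb11, Efna4, Tmem30a and Ergic2 on the upward side, with Pearson r from 0.996 to 0.999 and log2 ratios from 0.10 to 0.85 at 54 h and from 0.12 to 0.94 at 30 h. On the downward side they were Stxbp5l, Slc7a1, Sphk2, Timp3 and Csnk1d, with r from -0.999 to -0.996. Of these, Stxbp5l was a wide follower, with log2 ratios of -1.16 at 54 h and -1.26 at 30 h, and Slc7a1, Sphk2 and Csnk1d had ratios from -0.28 to -0.25 at 54 h and from -0.31 to -0.22 at 30 h. Timp3, an inhibitor of metalloproteinases bound to the matrix, was the most abundant of these, at 1825, 1485 and 981 CPM at 54 h and 1175, 945 and 587 CPM at 30 h. These values of r come from a search through 11131 genes over 6 libraries and are given as a ranking.

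The promoters of the followers were set out from RefSeq (GRCm38.p6), as the 250 bases before to 50 after the first listed start, for 30 of the 36 wide upward and 28 of the 38 wide downward genes. Shown first are the leading upward and the leading downward gene of this table, and then 3 genes whose promoters hold the forkhead core TAAACA; capitals mark a match to a searched motif on either strand, so that a match on the opposite strand reads TGTTTA. Efemp2 lies at chr19:5473696-5473995 (plus strand), Adgrg2 at chrX:160390440-160390739 (plus strand), Etl4 at chr2:20289663-20289962 (plus strand), Cdca3 at chr6:124829926-124830225 (plus strand) and Uhmk1 at chr1:170215358-170215657 (minus strand, printed as read from it).
Efemp2: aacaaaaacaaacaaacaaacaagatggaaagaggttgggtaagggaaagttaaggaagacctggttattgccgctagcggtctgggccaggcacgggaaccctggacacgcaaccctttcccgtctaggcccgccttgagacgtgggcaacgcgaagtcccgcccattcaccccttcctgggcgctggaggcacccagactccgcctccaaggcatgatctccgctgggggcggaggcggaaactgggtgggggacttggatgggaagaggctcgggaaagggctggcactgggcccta
Adgrg2: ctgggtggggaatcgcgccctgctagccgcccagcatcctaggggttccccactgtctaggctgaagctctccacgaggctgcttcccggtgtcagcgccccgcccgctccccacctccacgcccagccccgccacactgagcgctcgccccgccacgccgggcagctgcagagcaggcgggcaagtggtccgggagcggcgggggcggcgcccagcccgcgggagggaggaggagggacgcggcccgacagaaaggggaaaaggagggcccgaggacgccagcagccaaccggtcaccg
Etl4: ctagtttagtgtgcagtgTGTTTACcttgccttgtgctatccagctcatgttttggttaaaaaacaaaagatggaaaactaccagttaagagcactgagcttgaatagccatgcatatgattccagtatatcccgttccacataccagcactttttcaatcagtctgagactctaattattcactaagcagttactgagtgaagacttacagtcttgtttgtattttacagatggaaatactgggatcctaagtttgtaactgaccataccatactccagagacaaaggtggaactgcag
Cdca3: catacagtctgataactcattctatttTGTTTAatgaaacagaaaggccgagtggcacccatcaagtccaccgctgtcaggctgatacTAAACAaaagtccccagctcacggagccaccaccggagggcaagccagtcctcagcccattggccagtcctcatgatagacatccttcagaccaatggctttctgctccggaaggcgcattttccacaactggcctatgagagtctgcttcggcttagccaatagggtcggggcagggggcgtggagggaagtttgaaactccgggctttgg
Uhmk1: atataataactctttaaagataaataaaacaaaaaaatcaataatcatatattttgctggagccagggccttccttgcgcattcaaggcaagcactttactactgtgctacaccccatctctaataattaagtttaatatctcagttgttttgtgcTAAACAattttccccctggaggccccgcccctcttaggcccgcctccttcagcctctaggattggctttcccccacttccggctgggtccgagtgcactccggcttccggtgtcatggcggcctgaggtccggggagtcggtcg

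The promoters of Efemp2 and Adgrg2 hold none of the 4 motifs searched. Etl4 (a cytoskeletal protein of embryonic patterning) and Cdca3 (a trigger of mitotic entry) are wide upward genes, at 18.7, 34.1 and 53.9 CPM and at 14.2, 16.9 and 39.5 CPM from low to high Foxl2 at 54 h, and Uhmk1 (a kinase that binds the splicing machinery) is a wide downward gene, at 45.7, 30.3 and 22.1 CPM at 54 h. TAAACA was found in 2 of 30 wide upward promoters (6.67%), in 3 of 28 wide downward promoters (10.7%) and in 674 of 8626 promoters (7.81%) of all genes with a mean of at least 4 CPM. The longer form GTAAACA, which contains TAAACA, was found in 1, in 0 and in 195 (2.26%) of the same promoters. The NR5A receptor motif CAAGGTCA was found in 0, in 1 and in 85 (0.985%), and the palindromic oestrogen receptor element in none of the 8626. The wide followers' shares were near those of all genes, and absence from a window of 300 bases says nothing of sites elsewhere.

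Granulosa identity genes did not follow as a group. Of 20 listed genes with a mean of at least 4 CPM, 3 followed upward (15%) and 1 downward (5%), beside 9.35% and 6.55% of all genes. A looser reading asks only whether the highest-Foxl2 library lay above or below both others at both times, which held for 25.9% and 23% of all genes and for 7 and 4 of the 20. By that reading 13.4% of genes took opposite directions at the 2 times with Foxl2 siRNA. In the scrambled libraries 27.8% of genes were above, 18.4% below and 17.8% opposite. With a log2 ratio of at least 1 in size it held for 63 upward (0.566%) and 70 downward genes (0.629%) with Foxl2 siRNA, and for 0 upward and 71 downward genes (0.641%) in scrambled libraries. Fst was highest in that library but lowest in the middle one, at 7.97, 3.21 and 14.8 CPM at 54 h and 10.1, 6.22 and 19.2 CPM at 30 h, far below the scrambled averages of 94.4 ± 11.1 CPM at 54 h and 60.0 ± 13.3 CPM at 30 h (SD, n = 3 each). Hsd17b1, which converts oestrone to oestradiol, had the same shape, at 8.44, 5.32 and 34.3 CPM at 54 h and 24.4, 19.2 and 66.6 CPM at 30 h. Grem1, an antagonist of bone morphogenetic proteins (BMPs), stood at 1.25, 0.902 and 12.3 CPM at 54 h and 2.19, 2.28 and 7.58 CPM at 30 h. Nr5a1, Nr5a2, Foxo1 and Runx1 had log2 ratios between -0.39 and 0.15 at 54 h and between -0.45 and 0.15 at 30 h. Cyp19a1 was under 1 CPM in each of the 6 libraries, and Fshr, Lhcgr and Amh had means under 4 CPM, so they were not sorted.

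In the activin, inhibin and BMP list, 5 of 29 genes followed upward (17.2%) and 3 downward (10.3%), beside 9.35% and 6.55% of all genes. Bmpr1a and Bmpr1b, type I BMP receptors, and the BMP-responsive genes Id1 and Id3 were among the upward genes. Bmpr1b had 4.53, 5.30 and 12.6 CPM at 54 h and 7.03, 7.30 and 16.2 CPM at 30 h. Id3 had 65.8, 85.5 and 125 CPM at 54 h and 73.3, 99.9 and 169 CPM at 30 h. The downward genes were Tgfb2, Inhba and Smad1, while Smad2, Smad4 and Tgfbr2 had log2 ratios between -0.17 and 0.09 at both times.

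Sox9 was lowest in the highest-Foxl2 library and highest in the middle one, at 72.3, 110 and 31.4 CPM at 54 h and 33.1, 44.3 and 16.9 CPM at 30 h, against 8.51 ± 0.989 and 9.44 ± 0.729 CPM in scrambled libraries at 54 h and 30 h (SD, n = 3 each). Of 14 Sertoli and testis genes, 6 had the highest-Foxl2 library below both others at both times and 3 above, beside 23% and 25.9% of all genes. In full, 1 followed upward and 0 downward, beside 9.35% and 6.55% of all genes. Gdnf, a growth factor from Sertoli cells, stood at 9.65, 16.8 and 2.76 CPM at 54 h and 5.96, 6.03 and 2.72 CPM at 30 h. The upward gene was Cyp26b1, which degrades retinoic acid, at 121, 135 and 303 CPM at 54 h and 373, 448 and 582 CPM at 30 h. In 8 of the 14 genes the middle library was above both others at both times, beside 18.1% of all genes.

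Cell cycle genes were mostly highest where Foxl2 was highest. In 41 of 47 the highest-Foxl2 library lay above both others at both times and in 2 below, beside 25.9% and 23% of all genes. The median log2 ratio was 0.49 at 54 h and 0.49 at 30 h, beside medians of 0.00 and 0.02 over all genes. The full order was seen in 6 upward (12.8%) and 2 downward genes (4.26%), near the 9.35% and 6.55% of all genes. The lowest and middle libraries seldom kept their order. Kif23, a kinesin of cytokinesis, had 31.9, 37.3 and 69.8 CPM at 54 h and 50.3, 64.6 and 80.6 CPM at 30 h. Foxm1, a forkhead activator of mitotic genes, had 24.4, 21.2 and 53.4 CPM at 54 h and 38.6, 41.2 and 68.1 CPM at 30 h. The exceptions were Ccnd1 and its kinase partner Cdk6, at 103, 94.5 and 69.1 CPM at 54 h and 92.1, 77.1 and 57.5 CPM at 30 h. In bulk RNA, fewer cells in a state and less RNA per cell cannot be told apart.

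Cholesterol synthesis genes showed the reverse. In 20 of 24 the highest-Foxl2 library lay below both others at both times and in 1 above, beside 23% and 25.9% of all genes. Their median log2 ratios were -0.81 at 54 h and -0.44 at 30 h, beside 0.00 and 0.02 over all genes. In full, 5 of the 24 followed downward, beside 6.55% of all genes. Idi1, the isomerase that makes dimethylallyl diphosphate, had 401, 367 and 185 CPM at 54 h and 411, 362 and 246 CPM at 30 h. Hsd17b7, which also works in sterol synthesis, had 159.2, 158 and 71.0 CPM at 54 h and 149.98, 149 and 79.7 CPM at 30 h, where scrambled libraries averaged 69.0 ± 3.46 CPM at 54 h and 74.7 ± 1.25 CPM at 30 h (SD, n = 3 each). Star, which carries cholesterol into mitochondria, had 775, 847 and 295 CPM at 54 h and 498, 542 and 294 CPM at 30 h, with its highest-Foxl2 libraries beside scrambled averages of 299 ± 11.7 CPM at 54 h and 311 ± 5.77 CPM at 30 h (SD, n = 3 each).

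**Figure D4:**
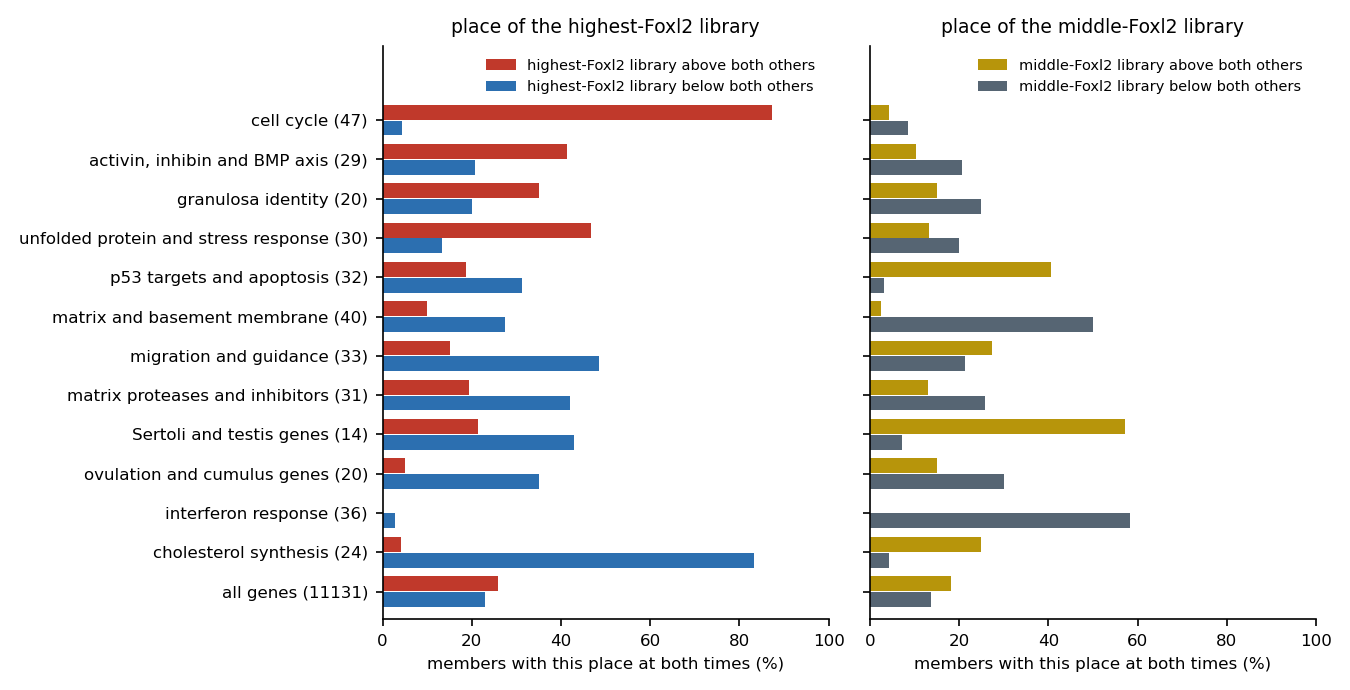
Bars give the percentage of each list's genes with a mean of at least 4 CPM (number in brackets) in which the highest-Foxl2 library (left panel) or the middle-Foxl2 library (right panel) lay above or below both other libraries at both times. Cell cycle and cholesterol synthesis genes stand out on the left, and matrix, interferon response, Sertoli and p53 genes on the right, against the bars for all 11131 genes.

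In the migration and guidance list the highest-Foxl2 library lay below both others at both times in 16 of 33 genes and above in 5. Over all genes these shares were 23% and 25.9%. In full, 5 of the 33 followed downward and 1 upward, beside 6.55% and 9.35% of all genes. The median log2 ratio of that list was -0.05 at 54 h and -0.37 at 30 h, beside 0.00 and 0.02 over all genes. Nrp1, a co-receptor of semaphorins and VEGF, had 398, 320.0 and 189 CPM at 54 h and 360, 357 and 186 CPM at 30 h. Slit2, the ligand of Robo receptors, had 62.8, 59.6 and 19.0 CPM at 54 h and 44.5, 44.3 and 23.0 CPM at 30 h. Of the matrix proteases and inhibitors, 13 of 31 had the highest library lowest and 6 had it highest, beside 23% and 25.9% of all genes. Their medians were -0.29 at 54 h and -0.14 at 30 h. Serpine2, a serine protease inhibitor (nexin-1), was highest in the highest-Foxl2 library, at 87.7, 86.6 and 281 CPM at 54 h and 170.0, 168 and 448 CPM at 30 h.

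Survival and stress genes followed in both directions, at shares that are read beside 9.35% upward and 6.55% downward over all genes. Mcl1, an anti-apoptotic BCL2 relative, followed upward at 198, 213 and 381 CPM at 54 h and 188, 191 and 360 CPM at 30 h. Gadd45g, a growth arrest gene, followed downward at 96.4, 71.9 and 57.6 CPM at 54 h and 99.4, 72.7 and 69.0 CPM at 30 h. Of 32 p53 and apoptosis genes, 6 followed upward and 2 downward. Psat1, an enzyme of serine synthesis induced by ATF4, was the wide upward member of the unfolded protein and stress list, at 78.2, 87.5 and 161 CPM at 54 h and 75.5, 92.2 and 158 CPM at 30 h, while Slc7a11, the cystine transporter and also an ATF4 target, followed downward at 20.4, 12.9 and 9.66 CPM at 54 h and 15.6, 9.67 and 8.11 CPM at 30 h. In that list 3 of 30 genes followed upward and 3 downward.

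A further set of genes was ordered by the middle library instead of Foxl2. Replicate 1, the middle library at both times, lay below both others at both times in 1535 genes (13.8%) and above both in 2014 (18.1%), while 504 genes had it lowest at one time and highest at the other. It was lowest in 21 of 36 interferon response genes, of which 0 followed Foxl2 in either direction, and in 20 of 40 matrix and basement membrane genes. Isg15, a ubiquitin-like interferon product, had 107, 43.5 and 49.8 CPM at 54 h and 53.7, 21.9 and 59.1 CPM at 30 h. Col1a1, the fibrillar collagen, had 682, 205 and 498 CPM at 54 h and 572, 166 and 346 CPM at 30 h. Replicate 1 was also lowest at both times among the scrambled libraries in 28 of the 40 matrix genes and in 9 of the 36 interferon genes, beside 2077 of the 11131 genes.

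Markers of other cells also differed between these libraries. The sum of 15 theca and stroma markers followed Foxl2 downward, at 2178, 1481 and 1365 CPM at 54 h and 1542, 971 and 945 CPM at 30 h, beside ranges of 882 to 1353 CPM with Esr2 siRNA, 734 to 1362 CPM with scrambled siRNA at 54 h and 665 to 1144 CPM with scrambled siRNA at 30 h. Star, Col1a1 and Col3a1 made up most of the sum. Star was lowest in the highest-Foxl2 library, at 775, 847 and 295 CPM at 54 h and 498, 542 and 294 CPM at 30 h. Col1a1 and Col3a1 were lowest in the middle library at both times, so the highest-Foxl2 library was lowest in the sum through Star. No marker of the 9 with a mean of at least 4 CPM had the full order downward. The theca markers Cyp17a1 and Insl3 were under 0.1 CPM in all 6 libraries. In 7 of these 9 and in 8 of 10 smooth muscle and pericyte markers the middle library was lowest at both times. The smooth muscle list summed to 1825, 916 and 1520 CPM at 54 h and 1608, 855 and 1615 CPM at 30 h. Surface epithelium markers summed to 9830, 9731 and 8119 CPM at 54 h and 8245, 8423 and 8034 CPM at 30 h, beside at most 5650 CPM in the other libraries. Most of it was Aldh1a1, at 8667, 8458 and 6798 CPM at 54 h and 7487, 7614 and 7270 CPM at 30 h. The other markers did not share its direction as a set. Of 12 with a mean of at least 4 CPM, 1 followed upward and 0 downward, beside 9.35% and 6.55% of all genes. The highest-Foxl2 library was above both others at both times in 3 and below in 3, beside 25.9% and 23% of all genes. Endothelial markers summed to 62.7, 54.7 and 50.5 CPM at 54 h and 37.2, 24.7 and 29.7 CPM at 30 h. Of the 15, 7 averaged under 1 CPM and 2 reached a mean of 4 CPM. Those 2 differed in shape at 54 h, with Robo4 at 23.4, 40.6 and 23.0 CPM and Eng at 17.9, 4.20 and 12.5 CPM. Leukocyte markers summed to at most 7.41 CPM, oocyte markers to at most 4.40 CPM and erythroid markers to at most 2.11 CPM, with the leukocyte antigen Ptprc under 0.1 CPM and Zp3 and Hba-a1 at 0 counts in all 6. The part of these cells in the followers was not tested.

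The genes in opposite order at the 2 times were narrow and split by transcript length. None of the 665 reached a log2 ratio of 1 in size at both times. Spock2, a matrix proteoglycan, had 4.16, 4.47 and 6.15 CPM at 54 h and 5.47, 3.996 and 3.31 CPM at 30 h. Srrm2, a large scaffold protein of the spliceosome, had 649, 649 and 899 CPM at 54 h and 926, 742 and 636 CPM at 30 h. Tle2, a Groucho co-repressor, had 35.8, 40.0 and 48.2 CPM at 54 h and 62.5, 51.4 and 39.7 CPM at 30 h. Genes upward at 54 h and downward at 30 h had a median transcript length of 6354.5 bases over 334 genes with a length, and those with the opposite orders 2219 bases over 317 genes, beside 3509 bases over 10854 of all genes. At 30 h genes shorter than the lower quartile of length deviated by medians of -0.10, 0.02 and 0.09 from the lowest-Foxl2 to the highest-Foxl2 library on the log2 scale, and those longer than the upper quartile by 0.08, 0.01 and -0.08. At 54 h all such medians were within 0.03 of 0. With levels adjusted for length in each library, an alternative chosen after seeing the data, 375 genes in place of 665 had opposite orders.

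**Figure D5:**
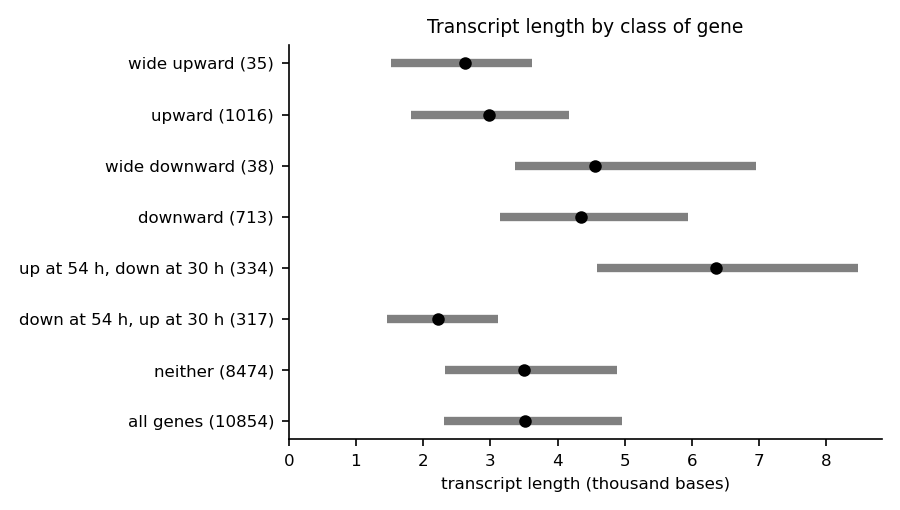
Points are medians and bars the quartiles of transcript length (x axis, kb, longest annotated transcript per gene) for each class, with the number of genes that have a length in brackets. Genes upward at 54 h and downward at 30 h are the longest, at a median of 6354.5 bases, and those with the opposite orders the shortest, at 2219 bases.

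Upward followers were shorter and downward followers longer than all genes as well, with medians of 2986 and 4347 bases, and 2617 and 4551 bases in the wide classes. After the adjustment for length, 29 wide upward and 35 wide downward genes remained, of which 24 and 32 were among the first 36 and 38.

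Some genes differed widely with Foxl2 at one time and narrowly at the other. Flrt1, an adhesion protein of guidance receptors, had 7.92, 8.20 and 17.5 CPM at 54 h and 13.6, 12.5 and 13.3 CPM at 30 h. Map3k9, a mixed lineage kinase, had 3.56, 4.14 and 8.48 CPM at 54 h and 2.90, 2.68 and 3.13 CPM at 30 h. Conversely Ppl, the cytoskeletal linker periplakin, was level at 40.6, 41.0 and 40.8 CPM at 54 h and graded at 27.8, 14.9 and 13.7 CPM at 30 h. Pkhd1l1 stood at 66.2, 63.2 and 71.2 CPM at 54 h and 36.5, 16.6 and 14.8 CPM at 30 h. Ryr2, a calcium release channel, Klf12, a transcriptional repressor, and the noncoding Meg3 ran downward at 30 h with log2 ratios from -1.43 to -1.12 and had ratios from -0.27 to -0.12 at 54 h. Nynrin, Ptchd4 and Gm14005 had ratios of 1.02, 1.13 and -1.05 at 54 h and 0.19, 0.11 and -0.25 at 30 h. Of these genes Ryr2, Klf12, Nynrin and Gm14005 had the full order at both times and are counted among the followers. All were chosen for the contrast between the times, which was not tested.

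Change with time was also tested in the Foxl2 siRNA libraries. Wide followers were chosen for a wide spread within each of the groups compared, which enters the error of this test, so their counts cannot be read against the share of all genes. Foxl2 averaged 38.8 ± 16.7 CPM at 54 h and 42.5 ± 19.98 CPM at 30 h (SD, n = 3 each), with a log2 change of -0.13 ± 0.30 (SE; adjusted p = 0.849 by the edgeR quasi-likelihood test, Benjamini-Hochberg adjusted). By that test 1050 of 14907 genes differed between 54 h and 30 h (7.04%), 560 higher (3.76%) and 490 lower (3.29%) at 54 h. Of the wide followers, 1 of 36 upward genes and 0 of 38 downward genes passed, with 5 in each class at an unadjusted p under 0.05; DESeq2 called 2 of the upward genes. The upward gene was Unc45b, a chaperone of muscle myosin, at 4.796, 10.3 and 18.5 CPM at 54 h and 1.19, 1.84 and 2.46 CPM at 30 h, a log2 change of 2.62 ± 0.45 (SE; adjusted p = 0.00703 by the edgeR quasi-likelihood test, Benjamini-Hochberg adjusted). Its 3 values at 54 h were all above those at 30 h. All of its values at 30 h were under 4 CPM, so it met the minimum mean through its levels at 54 h. The choice of this gene thus used the levels that the test compares. When these 2 groups alone entered the fit, none of the genes was called, with 1800 at an unadjusted p under 0.05. The counts leaned on single libraries, at 2637 genes with 18 wide upward and 9 wide downward followers without the highest-Foxl2 library at 54 h, 328 genes without the middle library at 54 h, and 470 and 484 without the middle and the highest library at 30 h.

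Esr2 siRNA against scrambled siRNA at 30 h compared libraries that the ordering did not use. In it Esr2 itself averaged 13.7 ± 0.818 CPM with Esr2 siRNA and 60.9 ± 0.651 CPM with scrambled siRNA (SD, n = 3 each), a log2 change of -2.14 ± 0.06 (SE; adjusted p = 6.37e-07 by the edgeR quasi-likelihood test, Benjamini-Hochberg adjusted). Foxl2 was lower as well, at 112, 128 and 114 CPM with Esr2 siRNA and 174, 152 and 143 CPM with scrambled siRNA, a log2 change of -0.40 ± 0.09 (SE; adjusted p = 0.0204 by the same edgeR test with Benjamini-Hochberg adjustment). The test called 2031 of 14647 genes (13.9%), 913 higher (6.23%) and 1118 lower (7.63%). Of the 36 wide upward followers 1 was higher and 9 were lower, and of the 38 wide downward followers 5 were higher and 0 lower. The median log2 change was -0.05 over the wide upward and 0.31 over the wide downward followers, beside 0.00 over all genes tested. Of all 1041 upward followers 45 were higher and 136 lower, and of all 729 downward followers 101 were higher and 46 lower, so that in each class the more frequent direction was that of the libraries with least Foxl2. The 136 include Esr2, the target of the siRNA. Followers needed a mean of at least 4 CPM with Foxl2 siRNA, which the 14647 genes did not, so shares called are not on like sets.

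Among the 9 were St3gal4, Bmpr1b and Etl4. St3gal4 averaged 243 ± 8.84 CPM with Esr2 siRNA and 394 ± 34.5 CPM with scrambled siRNA (SD, n = 3 each), a log2 change of -0.69 ± 0.07 (SE; adjusted p = 0.000299 by the edgeR quasi-likelihood test, Benjamini-Hochberg adjusted). Bmpr1b averaged 19.2 ± 2.25 CPM with Esr2 siRNA and 36.8 ± 3.42 CPM with scrambled siRNA (SD, n = 3 each), a log2 change of -0.93 ± 0.09 (SE; adjusted p = 0.000299 by the same edgeR test). Efemp2 differed by -0.19 ± 0.04 and Dcaf12l1 by -0.72 ± 0.09 on the log2 scale (SE; adjusted p = 0.0154 and 0.000868 by the same edgeR test). The Efemp2 call was lost without scrambled replicate 3 (adjusted p = 0.0729) or without Esr2 siRNA replicate 1 (adjusted p = 0.0563 by the same edgeR test). The gene called higher was Dcaf7, with a log2 change of 0.34. The 5 downward genes called higher were Stxbp5l, Gcnt3, Enpp1, Cd28 and Tgfb2, with log2 changes from 0.59 to 1.45 and adjusted p from 5.95e-05 to 0.0468 by the same edgeR test. Adgrg2 and Ccnd1 had log2 changes of 0.84 and 0.58 that did not pass (adjusted p = 0.281 and 0.104 by the same edgeR test). In a fit of all 15 libraries, whose spread includes the Foxl2 siRNA libraries, 631 genes were called, with 0 of the wide upward and 1 of the wide downward followers; 4 and 3 of them had an unadjusted p under 0.05 there. Leaving out 1 library gave from 971 genes, without scrambled replicate 3, to 3586, without Esr2 siRNA replicate 2, with 6 to 17 wide upward and 3 to 11 wide downward followers.

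Culture time without Foxl2 siRNA, tested as scrambled 54 h against 30 h, shares the scrambled libraries at 30 h with the comparison just given. By the edgeR quasi-likelihood test, Benjamini-Hochberg adjusted, 60 of 14647 genes (0.41%) passed, 31 higher (0.212%) and 29 lower (0.198%) at 54 h, and 33 with the replicate number as a block. Of the wide followers 1 upward gene (Spin2c, from a family of near-identical copies) and 1 downward gene (Enpp1) were higher at 54 h, and 0 of the downward genes passed with the block, with 5 at an unadjusted p under 0.05; DESeq2 called 2 downward genes. Without any 1 library at most 16 genes were called, and 0 without each library at 54 h and without replicate 3 at 30 h. Enpp1, an ecto-enzyme that makes pyrophosphate, had a log2 change of 0.45 ± 0.06 (SE; adjusted p = 0.0256 by the same edgeR test).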

How the data were processed

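Per the labels' protocols, stranded mRNA libraries were made from 1.3 µg of total RNA and sequenced as single reads of 75 bases. Tools named in the submitters' processing notes are TopHat2, DESeq2 and bcl2fastq 2.15.0, with mm10 as the build. The counting tool, annotation and strandedness of counting are not given in the sources, so overlapping and antisense genes cannot be told apart. The authors deposited raw counts per gene for each of the 15 libraries, with 44.98 to 59.55 M gene counts a library. The deposited counts hold 24490 genes and 92 ERCC spike-ins, which were kept out of library sizes and tests, and 15 symbols that a spreadsheet had turned into dates were restored. No pair of replicates agreed within counting noise (chi-square per degree of freedom at least 7.18).

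Counts were scaled by TMM (edgeR 4.0.16, limma 3.58.1, R 4.3.3). Tables were built with Python 3.11.15, numpy 2.4.6, pandas 2.3.3 and scipy 1.17.1, and figures with matplotlib 3.10.9. Genes needed a mean of at least 4 CPM over the 6 Foxl2 siRNA libraries, and a wide follower a log2 ratio of at least 1 in size at both times. Likeness to Foxl2 used log2(CPM + 1). Tests were edgeR quasi-likelihood tests, Benjamini-Hochberg adjusted, at 0.05. The fit of Foxl2 siRNA over time used all 15 libraries (10 residual degrees of freedom), and the other comparisons used the 9 libraries without Foxl2 siRNA (6 residual degrees of freedom). DESeq2 1.42.0 was an alternative, beside other scalings, limits, samples in the fit and left-out libraries.

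Named genes were the 14 leading followers in each direction, ranked by the smaller of the 2 ratios, the 6 genes most like and least like Foxl2, genes wide at 1 time only, 6 genes in opposite order, and a fixed panel of granulosa, Sertoli and steroid genes; members of the lists were named as examples after their values were seen. A few genes that the rule takes in are not reported here. The members and the 26 gene lists, with 671 genes, were chosen with earlier results of these data known. From the data, scrambled libraries of the 2 times matched by number in replicates 1 and 2 (correlations of deviations 0.73 and 0.65). Replicate 3 did not (0.17): it correlated more with replicate 2 of the other time (0.22 from 54 h and 0.41 from 30 h). Foxl2 siRNA libraries matched by number in replicate 1 alone (0.77, against -0.32 and -0.38). Esr2 siRNA and scrambled libraries did not match by number (-0.14, -0.56 and 0.34). Transcript length was that of the longest annotated transcript, matched by symbol. The scripts were tested on simulated data. A second, series-wide table was not used.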

Additional observations from a re-analysis of the deposited data

Results flagged for a closer look

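The 5 genes below are among the 665 ordered one way at one time and the opposite way at the other. Of the 665, 29 had all 4 steps between neighbouring libraries wider than counting error. Some steps here were small. From the lowest to the middle library at 54 h Srrm2 had 648.5 and 649.5 CPM and Spock2 4.16 and 4.47 CPM. From the middle to the highest library at 30 h Clmn had 3.87 and 3.70 CPM. The differences between the times were not tested. Spock2 had a log2 ratio of the highest-Foxl2 over the lowest-Foxl2 library of 0.56 at 54 h and -0.73 at 30 h. Ttll3, a tubulin glycylase, had 0.57 at 54 h and -0.52 at 30 h. Clmn, an actin-binding membrane protein, had 0.85 at 54 h and -0.51 at 30 h. Srrm2 had 0.47 at 54 h and -0.54 at 30 h. Tle2 had 0.43 at 54 h and -0.65 at 30 h. All 5 ran upward at 54 h and downward at 30 h, as did 340 of the 665 genes in opposite order. Those genes had a median transcript length of 6354.5 bases, beside 3509 bases over all genes.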

How the results depend on the processing

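With 3 libraries a time the order of each gene rests on 3 values, and no single order could pass a test. Counting error alone covers many steps between the lower libraries. Under library-size, DESeq2 median-ratio and upper-quartile scaling, 33 to 35 of the 36 wide upward and 32 to 38 of the 38 wide downward followers were again wide. Many counts moved under the alternatives, as given below, and a count has no direction to reverse. Ratios with a library left out were made for the leading followers in each direction, not for the other named genes. They keep their sign by construction, since the libraries of a follower are fully ordered. In the Esr2 siRNA comparison, the log2 changes of Efemp2, St3gal4, Dcaf12l1, Epb41l4b, Gcnt3 and Esr2 kept their sign whichever library was left out. Some list medians, most of them near 0, changed sign. With length-adjusted levels the medians at 30 h were -0.03 for Sertoli (0.03 before), -0.04 for p53 (0.04), 0.02 for junction (-0.02) and 0.001 for siRNA machinery genes (-0.19), and at 54 h -0.05 for forkhead factors (0.002). Under another scaling, forkhead factors at 54 h, junction and interferon genes at 30 h and nuclear receptors at 54 h changed sign, all within 0.05 of 0.

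A minimum of 10 CPM left 24 wide downward followers, and no minimum gave 77 wide upward and 123 wide downward. Asking only that the highest-Foxl2 library stand apart gave 2878 upward, 2558 downward, 1490 opposite, 63 wide upward and 70 wide downward genes, and in scrambled libraries 3076, 2039, 1975, 0 and 71. A log2 ratio of at least 0.5 gave 175 and 184 wide genes, and one of at least 2 gave 0 and 0. Length-adjusted levels, chosen after seeing the data, gave 375 opposite genes. These counts move by construction.

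Leaving out 1 library gave 1391 to 2161 upward, 1043 to 1576 downward, 1329 to 2618 opposite, 1 to 46 wide upward and 7 to 53 wide downward genes. In scrambled libraries it gave 960 to 2466, 566 to 1841 and 872 to 3682.

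For Foxl2 siRNA over time, DESeq2 called 1701 genes and 2 wide upward followers, and edgeR on those 2 groups alone 0 and 0, with 1800 and 2 at an unadjusted p under 0.05. Leaving out 1 library gave 328 to 2637 genes, 1 to 18 wide upward and 0 to 9 wide downward. For Esr2 siRNA, DESeq2 called 8 wide downward followers, edgeR on 2 groups 1131 genes, and edgeR on all 15 libraries 631 genes with 0 wide upward (4 at an unadjusted p under 0.05) and 1 wide downward. Leaving out 1 library gave 971 to 3586, 6 to 17 and 3 to 11. For scrambled siRNA over time, DESeq2 called 419, 3 and 2, edgeR on 2 groups 206 genes and 2 wide upward, and edgeR on all 15 libraries 1, 0 and 0 (727, 1 and 0 at an unadjusted p under 0.05). Leaving out 1 library gave 0 to 16, 0 to 0 and 0 to 1. The cause of these moves was not tested.

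With the replicate number as a block, scrambled siRNA over time gave 33 genes and 0 wide downward followers by edgeR, with 1749 and 5 at an unadjusted p under 0.05. In the Esr2 siRNA comparison, where the samples share only a number, Epb41l4b missed the threshold under the block (adjusted p = 0.0645 by edgeR).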
